A study of Mus musculus with 8 samples.

Results

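The mitochondrial genome of the mouse carries its own messenger RNAs, and 10 of them are described here: mt-Nd1, mt-Nd2, mt-Nd4, mt-Nd5, mt-Nd6, mt-Co1, mt-Co2, mt-Co3, mt-Atp6 and mt-Cytb. They were chosen by name among the 55679 genes of an RNA-seq table, and all 10 were present. The study raised blood pressure in mice to induce left ventricular hypertrophy, and its RNA-seq compared the left ventricle of an ANG II group with that of a control group. The ANG II group (n = 4) received angiotensin II, a peptide that constricts vessels and raises blood pressure, at 1500 ng/kg/min for 7 days from subcutaneous osmotic mini-pumps. The control group (n = 4) received saline for the same 7 days. Both groups were male wild-type C57BL/6J mice, whose ages are not given in the sources used here, and the hearts had been flushed with saline at collection.

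A mitochondrion is built from 2 genomes, its own and that of the nucleus. The mitochondrial messenger RNAs encode core subunits of 4 of the 5 complexes of oxidative phosphorylation: the mt-Nd genes belong to complex I (NADH dehydrogenase), mt-Cytb to complex III, the mt-Co genes to complex IV (cytochrome c oxidase) and mt-Atp6 to complex V (ATP synthase). All subunits of complex II are nuclear. Both strands of the circular genome are transcribed as long precursors, which are cut into single messenger and transfer RNAs, and most of the mature messenger RNAs carry short poly(A) tails. The heart depends on oxidative phosphorylation for its ATP, and its muscle cells are packed with mitochondria.

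Pieces of the mitochondrial genome have also been copied into nuclear chromosomes during evolution, and annotated copies are listed as pseudogenes with rows of their own. Positions and sequences below are those of GENCODE M21 (GRCm38). In the order of the mitochondrial genome (chromosome M), mt-Nd1 lies at 2751 to 3707, mt-Nd2 at 3914 to 4951, mt-Co1 at 5328 to 6872, mt-Co2 at 7013 to 7696, mt-Atp6 at 7927 to 8607, mt-Co3 at 8607 to 9390, mt-Nd4 at 10167 to 11544, mt-Nd5 at 11742 to 13565 and mt-Cytb at 14145 to 15288, all on the plus strand. Only mt-Nd6, at 13552 to 14070, lies on the minus strand among these 10 genes, and its end overlaps that of mt-Nd5. Whether counting used the strand is not given in the sources used here, so fragments of that overlap cannot be assigned to a strand. Each gene is a single coding exon.

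A block of such copies on chromosome 1 (minus strand) holds, in mitochondrial order, Gm29216 (24615706 to 24616197), Gm28661 (24614885 to 24615565), Gm10925 (24613974 to 24614651), Gm28437 (24613189 to 24613971) and Gm28439 (24611535 to 24612410). Gm28661 was identical to mt-Co2 over 681 aligned bases, Gm10925 to mt-Atp6 over 678 and Gm28437 to mt-Co3 over 783. Gm28439 was identical to mt-Nd4 over its bases 1 to 876, and Gm29216 matched mt-Co1 over 483 bases with 1 mismatch. A more divergent copy of mt-Co2 on chromosome 2, Gm13341 (22587291 to 22587962), had 16 mismatches and 1 gap. The first 90 bases of mt-Co2 and of both copies are shown because mt-Co2 is one of the low rows of the table and Gm28661 has the same letters. Capitals mark the bases that differ between mt-Co2 and Gm13341.
mt-Co2: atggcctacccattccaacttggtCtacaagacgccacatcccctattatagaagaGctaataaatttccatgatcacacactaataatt
Gm28661: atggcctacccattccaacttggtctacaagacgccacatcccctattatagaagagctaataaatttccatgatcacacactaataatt
Gm13341: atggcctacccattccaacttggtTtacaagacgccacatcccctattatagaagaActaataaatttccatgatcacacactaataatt

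The starts of mt-Atp6 and mt-Co3, 90 bases each, are letter for letter those of Gm10925 and Gm28437, and each is therefore printed once for gene and copy alike.
mt-Atp6 and Gm10925: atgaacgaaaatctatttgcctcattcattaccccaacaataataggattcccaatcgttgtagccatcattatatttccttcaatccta
mt-Co3 and Gm28437: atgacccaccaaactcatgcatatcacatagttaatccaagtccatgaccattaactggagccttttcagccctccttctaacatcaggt

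In mt-Co1 the copy Gm29216 covers only the end of the gene. Bases 1063 to 1152 of mt-Co1, counted from 1 at the start of the gene, hold the only mismatch (A1066T, the base of mt-Co1 first), which is in capitals.
mt-Co1: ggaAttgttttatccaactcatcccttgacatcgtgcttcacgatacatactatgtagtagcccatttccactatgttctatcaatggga
Gm29216: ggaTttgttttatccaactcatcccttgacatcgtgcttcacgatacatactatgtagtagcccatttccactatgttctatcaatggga

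Sharing with nuclear transcripts was measured as the percent of each gene's overlapping 150-base words that recur in a transcript of a nuclear gene. It was 99.4% for mt-Co2, 99.8% for mt-Co3 and 99.4% for mt-Atp6. It was 59.2% for mt-Nd4 and 23.6% for mt-Co1, and 0% for mt-Nd1, mt-Nd2, mt-Nd5, mt-Nd6 and mt-Cytb. With 50-base words, mt-Nd2 shared 8.2% and mt-Nd5 7.6%, while mt-Nd1, mt-Nd6 and mt-Cytb still shared 0%.

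Expression was deposited as FPKM, a measure scaled for the length of a transcript and the depth of a library, so levels of different genes can be compared. The libraries held 14455654 to 16564828 fragments each, recovered from the steps of the FPKM values. Summed levels of 12 cardiomyocyte markers were 57757 to 59091 FPKM in control and 45635 to 48075 FPKM in ANG II, as the labelled tissue would have, although the extraction text of the labels names another cell source. Of the 12, 2 were called lower, beside 1.41% of all genes, and 5 with median-of-ratios scaling, beside 4.15%, and 9 had a log2 fold change below 0. Tnnc1, chosen after its values were seen, was the 1 marker whose ANG II values all lay above control (log2 fold change 0.13, limma adjusted p = 0.149, and -0.10 with median-of-ratios scaling). Markers of other cells rose: 9 of 9 fibroblast genes (summed level 557 to 833 FPKM in control, 3424 to 4079 FPKM in ANG II), 8 of 8 macrophage genes (149 to 182 FPKM, 364 to 483 FPKM) and 5 of 5 erythroid genes (96.8 to 487 FPKM, 581 to 2083 FPKM) were called higher. Summed atrial markers were 1.15 to 48.8 FPKM in control and 52.5 to 230.5 FPKM in ANG II, with 1 of 3 called higher, and in endothelial, mural, T cell, adipocyte and skeletal muscle lists 1 of 6, 2 of 7, 1 of 5, 1 of 4 and 2 of 4 tested genes were called higher, beside 14.0% of all genes. The only gene of these 5 lists called lower was the mural gene Abcc9 (log2 fold change -0.55, limma adjusted p = 0.000201). Among RNAs retained in the nucleus, a list that bears on RNA quality, 2 of 3 tested were called higher: Neat1 (log2 fold change 0.58, limma adjusted p = 0.0326) and Meg3 (log2 fold change 1.13, limma adjusted p = 0.000156), while Malat1 averaged 340.1 ± 26.9 FPKM (control) and 359 ± 51.7 FPKM (ANG II; limma adjusted p = 0.645). With median-of-ratios scaling Neat1 was no longer called (log2 fold change 0.36, limma adjusted p = 0.171). Under that scaling, where 8.62% of all genes were called higher, 8 of 9 fibroblast, 7 of 8 macrophage and 5 of 5 erythroid genes were called higher, and 0 atrial, 0 endothelial, 0 adipocyte, 1 mural, 1 T cell and 2 skeletal muscle genes. In bulk tissue, fewer cells of a type and less RNA per cell cannot be told apart. The labels call the samples of a group separate ventricles, but do not tie each to an animal, and p-values measure the spread between these samples.

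In these poly(A)-enriched libraries, the 10 messenger RNAs ranged from rank 1 to rank 1394 of all genes by mean FPKM. In control, mt-Co1 had the highest level of all genes at 80443 ± 1973 FPKM (SD, n = 4 for every mean here). It was followed by mt-Nd1 (27478 ± 562 FPKM), mt-Cytb (26863 ± 1128 FPKM), mt-Nd2 (21759 ± 947 FPKM), mt-Nd5 (14720.4 ± 1315 FPKM), mt-Nd4 (11867 ± 416 FPKM) and mt-Nd6 (5388 ± 917 FPKM). The ranges of mt-Nd1 and mt-Cytb overlapped, with mt-Nd1 above in 3 of 4 control libraries, and all other neighbours in this part of the order had separate ranges.

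The remaining 3 rows were far lower: mt-Co3 at 160.3 ± 58.2 FPKM, mt-Co2 at 153 ± 20.7 FPKM and mt-Atp6 at 71.9 ± 10 FPKM. These are the 3 genes whose 150-base words were nearly all shared with nuclear copies, and they are cut from the same precursor as their abundant neighbours mt-Co1 and mt-Nd4. Together they made up 0.158 to 0.247% of the members' summed FPKM. The 3 rows rested on 491 to 2790 fragments per library, against 34580 to 2004975 for the other 7.

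**Figure D1:**
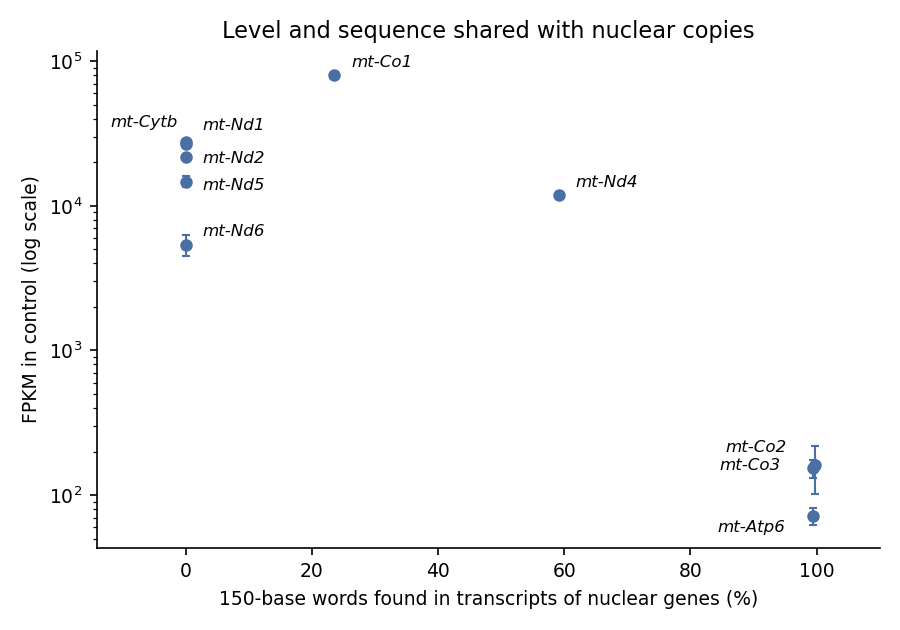
Mean level in the 4 control libraries (vertical axis, FPKM, log scale; bars are the SD) against the percent of 150-base words found in transcripts of nuclear genes (horizontal axis), 1 point per mitochondrial mRNA. mt-Co2, mt-Co3 and mt-Atp6 sit at the lower right, with 99.4 to 99.8% shared words and 71.9 to 160.3 FPKM, while the other 7 lie at 5388 FPKM or above.

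The copies themselves were listed between 119.5 and 164 FPKM in control, in the range of mt-Co2 and mt-Co3 and above mt-Atp6. Gm28661 was at 145 ± 17.1 FPKM in control beside 153 ± 20.7 FPKM for mt-Co2, Gm10925 at 164 ± 6.55 FPKM beside 71.9 ± 10 FPKM for mt-Atp6, and Gm28437 at 119.5 ± 10.1 FPKM beside 160.3 ± 58.2 FPKM for mt-Co3. Adding each copy to its gene gave control means of 298, 236 and 279.8 FPKM, still below the 5388 FPKM of mt-Nd6. How fragments that match both places were counted is not given in the sources used here, and the cause of the low rows was not tested. The levels of mt-Co2, mt-Co3 and mt-Atp6 are therefore read below only between groups, and not against the other 7.

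Of the other coding genes of the mitochondrial genome, mt-Nd3 (18.6 ± 4.06 FPKM) and mt-Nd4l (26.2 ± 6.79 FPKM) were also low and also have copies in the block on chromosome 1, Gm28438 and Gm10222, identical over 342 and 294 bases. A further low gene, mt-Atp8 (14.7 ± 4.91 FPKM), shared 0% of its 50-base words with annotated nuclear transcripts. It lies between mt-Co2 and mt-Atp6, and the stretch between Gm28661 and Gm10925 has no annotated transcript and was not searched. For mt-Nd4 and mt-Co1, the level depends on the length over which fragments can be placed. If none came from the shared 150-base words, the control level would be 29087 ± 1020.5 FPKM for mt-Nd4 and 105292 ± 2582 FPKM for mt-Co1.

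Most of the mitochondrial messenger RNAs were lower in ANG II. Of the 10, 7 had an adjusted p under 0.05 with a lower level in ANG II, against 4.91% of the 19364 genes tested (limma with Benjamini-Hochberg adjustment, applied to log2(FPKM + 1)). The threshold for a call also asked for an absolute log2 fold change above 0.5, and mt-Nd1 and mt-Co3 passed it, 2 of 10 beside 1.41% of all genes called lower. No member was called higher, beside 14.0% of all genes. With no filter on low values, and under quantile normalization, 3 of 10 had an adjusted p under 0.05 with a lower level in place of 7. The shares of all genes at that threshold in those fits are not given here. In 8 of 10 members the groups did not overlap, every control library being above every ANG II library, as in 5.06% of all genes. The median log2 fold change of the 10 was -0.43 and that of all genes tested 0.15.

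**Figure D2:**
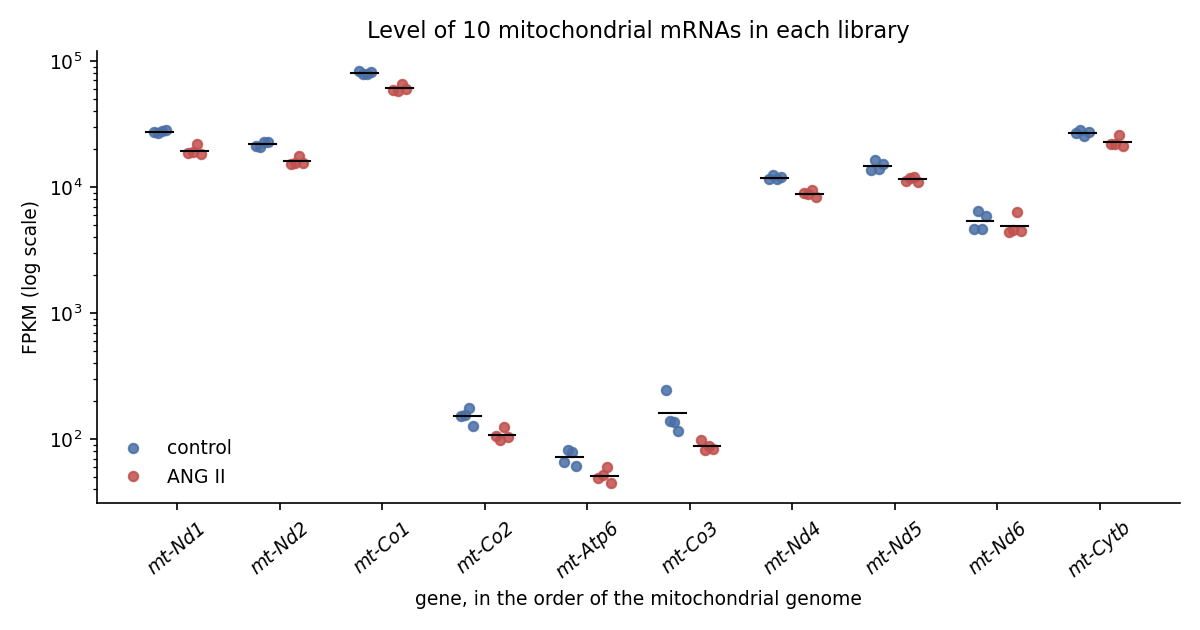
Level of each mitochondrial mRNA (vertical axis, FPKM, log scale) in the order of the mitochondrial genome, with 1 point per library, control in blue and ANG II in red, and lines at the group means. The groups are separate in all genes but mt-Nd6 and mt-Cytb, and mt-Co2, mt-Atp6 and mt-Co3 lie at 246 FPKM or below in every library.

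Among the complex I subunits, mt-Nd1, which sits in the membrane arm next to the quinone site, was at 27129, 26955, 27619 and 28208 FPKM in control and at 18749, 18834, 21894 and 18167 FPKM in ANG II. The control libraries lay close together, and ANG II 3 was the highest of its group yet below all of them. The level of mt-Nd1 in ANG II was 70.6% of control (log2 fold change -0.51, SE 0.118, limma adjusted p = 0.00882), just past the threshold for a call. The call of mt-Nd1 was lost without control 4 (-0.49), ANG II 1 (-0.49), ANG II 2 (-0.49) or ANG II 4 (-0.47), whose log2 fold changes fell short of the threshold. It was also lost with no filter (limma adjusted p = 0.269) and under quantile normalization (log2 fold change -0.11).

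For mt-Nd2, a proton-pumping subunit, the control values were 21081, 20809, 22533 and 22613 FPKM and the ANG II values 15263, 15621, 17686 and 15378 FPKM. The groups were separate, at 73.5% of control (log2 fold change -0.45, SE 0.11, limma adjusted p = 0.0116). The threshold was missed without control 4 (limma adjusted p = 0.0542) and with no filter (0.263).

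Values of mt-Nd4, another pumping subunit, were 11615, 12427, 11494 and 11934 FPKM in control and 8928, 8744, 9444 and 8309.6 FPKM in ANG II. The ANG II level was 74.6% of control (log2 fold change -0.42, SE 0.09, limma adjusted p = 0.00528), with the groups again separate, and with no filter the adjusted p was 0.119. Its neighbour mt-Nd5, the largest of the pumping subunits, was at 13574, 16414, 13791 and 15103 FPKM in control and at 11185, 11695, 12113 and 10885 FPKM in ANG II. The control libraries of mt-Nd5 were more spread than those of mt-Nd1, but none reached down to the ANG II values, which averaged 77.9% of control (log2 fold change -0.36, SE 0.105, limma adjusted p = 0.0259). This result rested on single libraries: the limma adjusted p was 0.0997 without control 2, 0.0889 without control 4, 0.0712 without ANG II 1 and 0.0692 without ANG II 4, and it was 0.274 with no filter.

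The light-strand gene mt-Nd6 did not pass the test. Its level was 4628, 6453, 4615 and 5854 FPKM in control and 4395, 4539, 6352 and 4483 FPKM in ANG II. The groups overlapped because ANG II 3 lay above 3 of the control libraries. The log2 fold change was -0.13 (SE 0.153, limma adjusted p = 0.568; exact two-sided permutation test, p = 0.4571). The ratio of mt-Nd6 to mt-Nd5, the light-strand gene over its heavy-strand neighbour, was 0.335 to 0.393 in control and 0.388 to 0.524 in ANG II, with overlapping ranges.

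In complex III, mt-Cytb, which encodes cytochrome b, did not pass either. It was at 26729, 28169.9, 25439 and 27113 FPKM in control and at 22056, 21888, 25955 and 21247 FPKM in ANG II. ANG II 3 was above 1 control library, and the other 3 ANG II libraries were below all of them. The mean in ANG II was 84.8% of control (log2 fold change -0.24, SE 0.124, limma adjusted p = 0.168; exact two-sided permutation test, p = 0.0571, where 0.0286 is the smallest that 4 against 4 allows).

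In complex IV, mt-Co1, the catalytic subunit with the heme and copper centre, was at 82618, 79283, 78342 and 81531 FPKM in control and at 58519, 57897, 65819 and 59784 FPKM in ANG II. The gap between the groups was wider than the range within either, yet the adjusted p did not pass the threshold (75.2% of control, log2 fold change -0.41, SE 0.164, limma adjusted p = 0.081). In the same limma fit without the trend of variance on abundance, the adjusted p was 0.00193.

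The row of mt-Co2, the subunit that accepts electrons from cytochrome c, held 152, 155, 178 and 127 FPKM in control and 107, 98.9, 125 and 104 FPKM in ANG II. The highest ANG II library lay just below the lowest control library, at 71.1% of control on average (log2 fold change -0.48, SE 0.103, limma adjusted p = 0.00527). Its identical copy Gm28661 moved likewise, with a mean of 145 FPKM in control and of 99.8 FPKM in ANG II (log2 fold change -0.53, limma adjusted p = 0.00371).

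The row of mt-Co3, a structural subunit, held 246, 140.5, 138 and 117 FPKM in control and 99.4, 82.5, 88.9 and 83.6 FPKM in ANG II. Control 1 stood above the other 3 control libraries, and all 4 ANG II values were below 100 FPKM. The log2 fold change was -0.79 (SE 0.193, limma adjusted p = 0.0107) with all libraries and -0.57 without control 1. Its identical copy Gm28437 went otherwise, with 112 to 133 FPKM in control and 700.4, 124, 92.7 and 84.7 FPKM in ANG II. A single library, ANG II 1, held 8314 fragments of Gm28437 against 1059 to 1731 in the other 7, and gene and copy together had overlapping groups (229 to 359 FPKM in control, 168 to 799.9 FPKM in ANG II). The call of mt-Co3 therefore concerns its row, and the sum with its copy was not tested.

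In complex V, the row of mt-Atp6, the channel subunit of ATP synthase, held 66, 81.9, 78.7 and 61 FPKM in control and 48.9, 52.2, 60.2 and 45.1 FPKM in ANG II. The groups only just separated, at 71.8% of control (log2 fold change -0.47, SE 0.111, limma adjusted p = 0.00926). With Gm10925 added, the ranges overlapped (219.7 to 252 FPKM in control, 153 to 244 FPKM in ANG II), since ANG II 3 had 184 FPKM of the copy.

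The size of the change depended on what the libraries were scaled to. FPKM values are scaled to the mapped fragments of a library, to which these genes themselves contribute much, and the median of all genes stood 0.15 above 0 on the log2 scale in these data. In another setting, each library was scaled to FPKM times transcript length, summed over genes outside the mitochondrial genome. The 10 log2 fold changes then had their median at -0.56, and 6 of 10 were called lower, beside 2.48% of all genes. With median-of-ratios scaling, which sets the median gene near 0, the median of the members was -0.66 and 7 of 10 were called lower, beside 4.15% of all genes. Under that scaling mt-Cytb had a log2 fold change of -0.47 (limma adjusted p = 0.0454) and mt-Nd6 one of -0.36 (limma adjusted p = 0.142). Quantile normalization gave each rank, the most abundant included, the same value in every library by construction. The 7 abundant members then lay between -0.11 and 0.11, with mt-Nd6 and mt-Cytb above 0. Under it mt-Co2, mt-Co3 and mt-Atp6 were called lower (3 of 10, beside 5.08% of all genes).

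**Figure D3:**
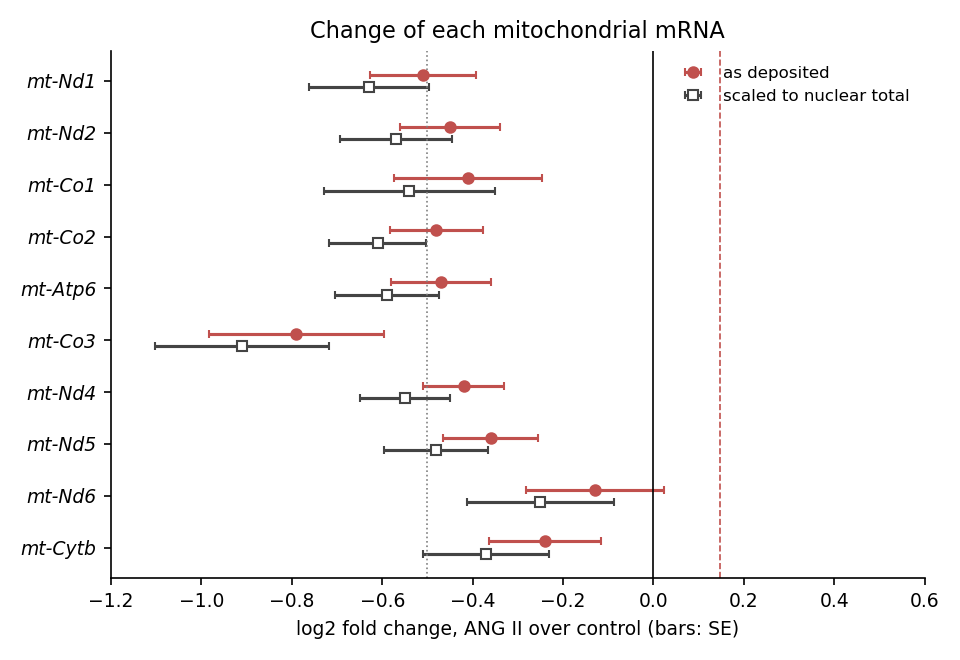
Log2 fold change of each mitochondrial mRNA, ANG II over control (horizontal axis; bars are the SE), as deposited (red circles) and scaled to the total of nuclear genes (open squares), with the threshold at -0.5 dotted and the median of all genes as deposited dashed in red. All 10 lie below 0 in both, from -0.79 to -0.13 as deposited and from -0.91 to -0.25 against nuclear genes.

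Summed over the 10 genes, mitochondrial messenger RNA took 25.0, 25.3, 24.4 and 25.5% of all fragments in the control libraries and 18.5, 18.5, 21.0 and 18.4% in the ANG II libraries. That is 25.1 ± 0.483% in control and 19.1 ± 1.26% in ANG II, a difference of 5.99 percentage points with no overlap. A single gene, mt-Co1, made up 12.5 ± 0.305% of all fragments in control and 9.35 ± 0.565% in ANG II.

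Within the sum, 8 of 10 genes had shares whose groups overlapped. The largest share was that of mt-Co1, which held 42.6 ± 1.02% of the members' summed FPKM in control and 42.0 ± 0.847% in ANG II. Only mt-Nd1 and mt-Cytb had shares whose groups did not overlap, in opposite directions: mt-Nd1 went from 14.1 to 15.0% in control to 13.1 to 13.7% in ANG II, and mt-Cytb from 13.8 to 14.8% to 15.3 to 16.3%. The order of the genes changed accordingly, with mt-Cytb above mt-Nd1 in 4 of 4 ANG II libraries, although the ranges of the 2 genes overlapped in both groups. The shares sum to a fixed total, and no test was made on them.

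Set against nuclear genes of related roles, the sum gave different answers for different references. Relative to the summed FPKM of 72 nuclear subunits of complexes I, III, IV and V, the mitochondrial sum was 5.71 to 6.25 in control and 4.92 to 5.19 in ANG II, so the groups were separate. Relative to 12 cardiomyocyte markers it was 3.15 to 3.31 in control and 2.9 to 3.42 in ANG II, and relative to the 4 subunits of complex II it was 58.1 to 62.2 and 55.7 to 64.8. The groups overlapped for both, and the cardiomyocyte sum was itself 79.8% of control in ANG II and the complex II sum 76.1%, beside 76.3% for the members. The part of the cell mixture in the lower mitochondrial level was not tested.

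**Figure D4:**
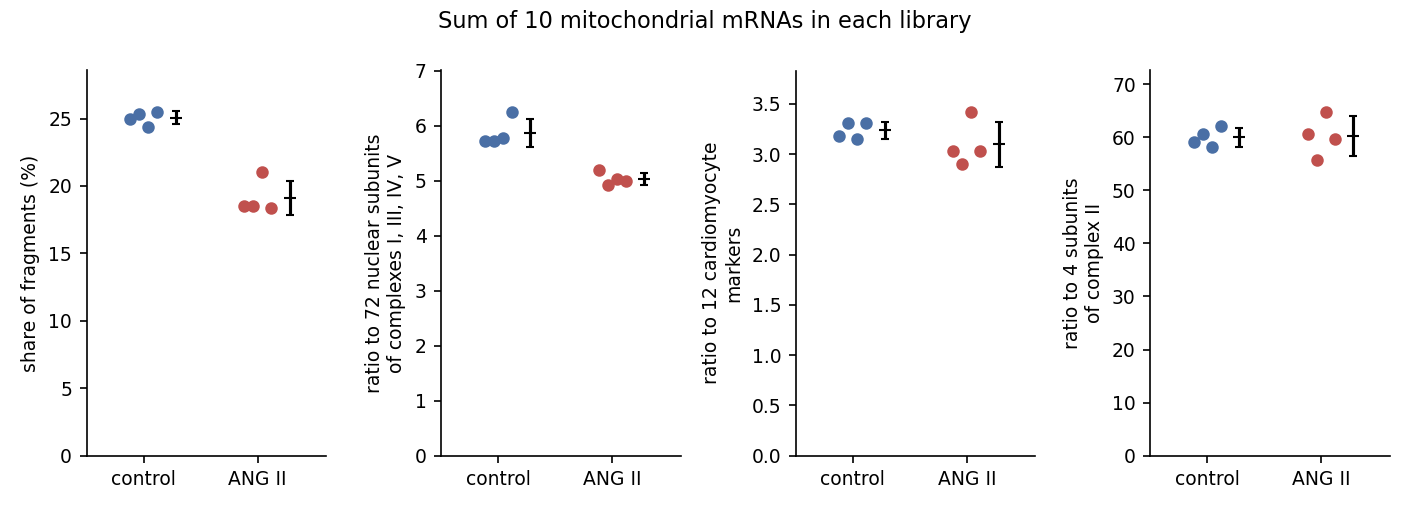
Summed level of the 10 mitochondrial mRNAs in each library, as a share of all fragments (first panel, %) and as a ratio of summed FPKM to 72 nuclear subunits of complexes I, III, IV and V, to 12 cardiomyocyte markers and to 4 subunits of complex II, with the mean and SD at the right of the points (blue control, red ANG II). The groups are separate in the first pair of panels and overlap in the others.

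Among the nuclear subunits of the same complexes, 23 of 72 had an adjusted p under 0.05 with a lower level in ANG II, beside 4.91% of all genes, and 0 with a higher level (limma). Their median log2 fold change was -0.09. With median-of-ratios scaling, 42 of 72 were lower at that threshold, beside 13.1% of all genes. Those called lower were 1 of 72, beside 1.41% of all genes, and 17 of 72 with median-of-ratios scaling, beside 4.15%. The 1 gene, Cox7a1, the heart and muscle form of a complex IV subunit, fell from 369.8 ± 17.9 FPKM to 254 ± 68.9 FPKM in ANG II (log2 fold change -0.58, SE 0.146, limma adjusted p = 0.0132). ANG II 3, at 356 FPKM of Cox7a1, overlapped the control libraries (344 to 383 FPKM). By complex, those with an adjusted p under 0.05 were 12 of 36 in complex I, 4 of 9 in complex III, 1 of 12 in complex IV and 6 of 15 in complex V, all lower. In complex II, 3 of 4 were lower, with Sdha, its flavoprotein, going from 2016 ± 19.6 to 1485 ± 76.3 FPKM (log2 fold change -0.44, limma adjusted p = 0.000373). It was chosen after its values were seen.

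Of 10 genes that transcribe mitochondrial DNA, 2 had an adjusted p under 0.05, both lower, beside 4.91% of all genes. They were the elongation factor Tefm (19.3 ± 1.08 to 15.4 ± 0.998 FPKM) and Mterf2 (14.3 ± 0.414 to 11 ± 1.9 FPKM). None was called, beside 1.41% of all genes called lower. With median-of-ratios scaling, 8 of 10 were lower at an adjusted p under 0.05, beside 13.1% of all genes. Tefm (-0.53) and Mterf2 (-0.58) were then called lower, 2 of 10 beside 4.15%. The mitochondrial RNA polymerase Polrmt was at 15.5 ± 0.724 and 13.3 ± 1.27 FPKM (limma adjusted p = 0.0553, and 0.00217 with median-of-ratios scaling), and Tfam, which packages mitochondrial DNA and starts its transcription, at 34.1 ± 0.826 and 31.7 ± 0.67 FPKM (limma adjusted p = 0.115, and 0.00144 with that scaling). These 4 genes fall outside the rule for named genes and were chosen after their values were seen, as was Lrpprc below.

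Among genes that process and stabilise mitochondrial RNA, 4 of 22 tested had an adjusted p under 0.05 and were lower, beside 4.91% of all genes, and 3 were higher, beside 28.4%. With median-of-ratios scaling 11 were lower, beside 13.1% of all genes, and only Rexo2 was higher, beside 14.6%. Lrpprc, which protects mitochondrial messenger RNAs and promotes their polyadenylation, went from 123 ± 7.39 to 95.5 ± 9.02 FPKM (log2 fold change -0.36, limma adjusted p = 0.00389). Rexo2, an exonuclease of short RNAs, was the only one called, 1 of 22 called higher beside 14.0% of all genes, and it rose from 54.2 ± 1.32 to 79.5 ± 4.69 FPKM (log2 fold change 0.54, SE 0.052, limma adjusted p = 7.17e-05). With median-of-ratios scaling its log2 fold change was 0.32, and it was no longer called, while 4 of the 22, Lrpprc among them (-0.59), were called lower, beside 4.15% of all genes.

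Of 13 mitochondrial translation factors, 8 had an adjusted p under 0.05, all lower, beside 4.91% of all genes, and none was called. Their median log2 fold change was -0.24, and with median-of-ratios scaling 3 were called lower, beside 4.15% of all genes. Of 12 genes of mitochondrial DNA replication, 0 had an adjusted p under 0.05 and were lower and 2 were higher, beside 28.4% of all genes. With median-of-ratios scaling the count turned to 5 lower and 0 higher, beside 13.1% and 14.6% of all genes, so no direction holds for that list. Among 10 regulators of mitochondrial biogenesis, 2 had an adjusted p under 0.05 and were lower, beside 4.91% of all genes, and 1 was higher, beside 28.4%. The lower genes were Ppargc1a and Esrrg (log2 fold change -0.35, limma adjusted p = 0.00955). The higher gene was Pprc1 (log2 fold change 0.34, limma adjusted p = 0.00816, and 0.25 with median-of-ratios scaling). With that scaling 4 were lower and 0 higher, beside 13.1% and 14.6% of all genes. Ppargc1a and Esrrg were then called lower, 2 of 10 beside 4.15%. Esrrg and Pprc1 were chosen after their values were seen. As deposited, the coactivator Ppargc1a was the 1 of 10 called lower, beside 1.41% of all genes, going from 72.1 ± 18.5 to 37.3 ± 2.79 FPKM (log2 fold change -0.90, SE 0.156, limma adjusted p = 0.0018). Its control libraries ranged widely, from 50.9 to 95.7 FPKM, and all 4 ANG II libraries were between 34.6 and 40.9 FPKM. Among 10 mitophagy genes, 3 had an adjusted p under 0.05 and were higher, beside 28.4% of all genes, and 1, the kinase Pink1, was lower, beside 4.91% (log2 fold change -0.36, limma adjusted p = 0.0197; chosen after its values were seen), and the median log2 fold change of the list was 0.0. In that list 2 of 10 were called higher, beside 14.0% of all genes, the receptor Bnip3 (83.3 ± 6.24 to 166 ± 25.9 FPKM, log2 fold change 0.97, limma adjusted p = 0.000102) and the adaptor Sqstm1 (283 ± 19.1 to 406 ± 40.6 FPKM, log2 fold change 0.52, limma adjusted p = 0.00085). Sqstm1 had a log2 fold change of 0.29 with median-of-ratios scaling and was not called there, where 3 of the 10 were higher and 4 lower at an adjusted p under 0.05, beside 14.6% and 13.1% of all genes, and Pink1 was called lower (-0.59).

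**Figure D5:**
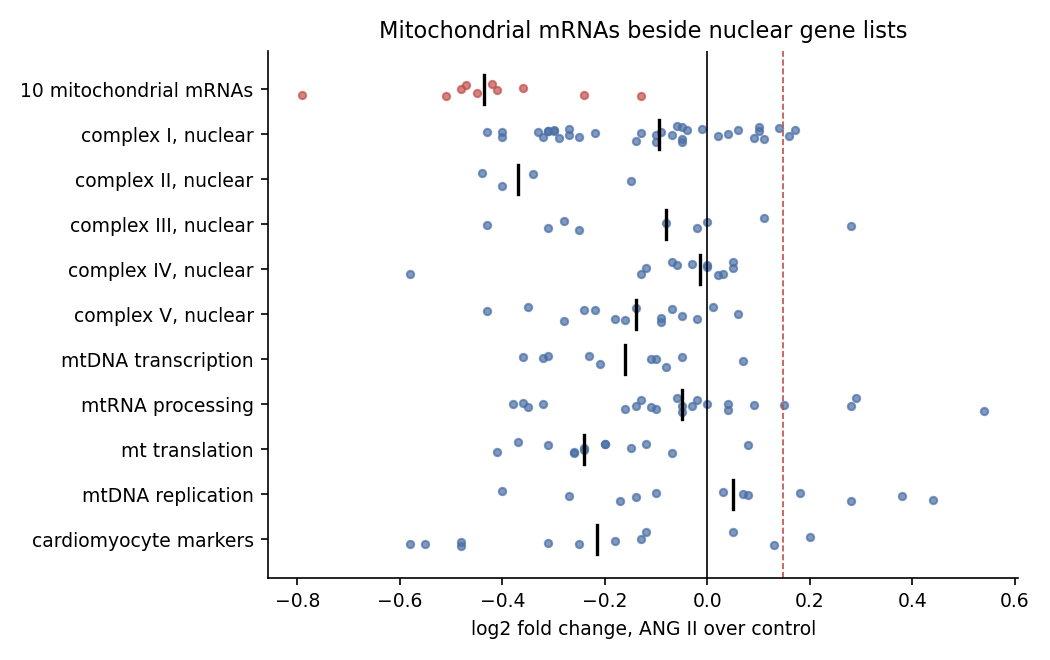
Log2 fold change, ANG II over control (horizontal axis), of the 10 mitochondrial mRNAs (red) and of genes in nuclear lists (blue), with 1 point per gene, a black bar at the median of each list and the median of all genes dashed. The black bar is at -0.43 for the mitochondrial mRNAs, at -0.37 for complex II, at -0.22 for cardiomyocyte markers and between -0.14 and -0.02 for nuclear subunits of complexes I, III, IV and V.

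Across the 8 libraries, the nuclear genes whose level followed the mean of the 10 members most closely, among 6732 candidates that averaged 10 FPKM or more, were Ndufs3 (r = 0.989), Decr1 (0.988), Rtn2 (0.988), Ech1 (0.983) and Mrpl42 (0.982). Ndufs3 is a complex I subunit, Decr1 and Ech1 are enzymes of fatty acid oxidation, and Mrpl42 belongs to the mitochondrial ribosome. These correlations hold the difference between the groups within them and are a description. Taken as deviations from the group means, the closest were Ndufb9 (r = 0.98), Rps27l (0.976), Ndufc2 (0.968), Prdx1 (0.965) and Fmc1 (0.963), a different set. Between pairs of members, the correlation of deviations from the group means had a median of 0.698 over the 21 pairs of the 7 abundant genes and 0.23 over the 21 pairs of an abundant with a low gene. All points share the same 8 libraries and the same totals.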

How the data were processed

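RNA was enriched on oligo(dT) beads, per the labels, and the authors deposited FPKM values for 8 libraries in 1 table, with 1 column per library and no pooling. Bowtie2, HISAT and RSEM are named in the submitters' processing notes without role or version. The genome build, the annotation, the use of strand and the treatment of fragments with several matches are not given in the sources used here. Groups came from the treatment labels. The members and gene lists were chosen with earlier results of these data known.

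FPKM times transcript length in GENCODE M21 (55141 of 55679 gene IDs found) gave whole fragments (tolerance 0.05) for 99.09 to 99.2% of low values and thus the depth. A value of 0 allows up to 3 fragments; counting error only. limma 3.58.1 in R 4.3.3 (lmFit, eBayes with a variance trend) was fitted to log2(FPKM + 1) of the 19364 genes averaging 0.1 FPKM or more, with two-sided p-values adjusted by the Benjamini-Hochberg method. Fold changes on this scale understate those of low genes. A gene was called at an adjusted p under 0.05 and an absolute log2 fold change above 0.5. An exact permutation test (two-sided) over samples served for single values. Sums, shares and ratios got no test. The limma step was tested on simulated data. Named were all members, up to 3 called genes of each list with the largest change, other mitochondrial genes and nuclear copies on which a result turns, and the 5 genes most like the members. Alternatives changed the pseudocount, filter, scaling, variance trend, unit (voom on fragments), thresholds, replicate block and libraries. Sequence and summary steps used biopython 1.88, scipy 1.17.1, pandas 2.3.3 and numpy 2.4.6 under Python 3.11.15, and figures matplotlib 3.10.9. The authors' further RNA-seq libraries were not analysed here.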

Additional observations from a re-analysis of the deposited data

Results flagged for a closer look

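In 22 groups of 4 libraries, each the values of a member or of a sum, the highest and lowest library were compared with the rest by Dixon's ratio of the gap to the range at its 95% critical value, which chance exceeds in about 1 of 20 groups. In 3 groups the ratio was exceeded, each time by ANG II 3 as the highest library. Its mt-Nd2 level was 17686 FPKM against 15621 FPKM for the next library (ratio 0.852). Its mt-Nd6 level was 6352 FPKM against 4539 FPKM (ratio 0.926). The members took 21.0% of its fragments against 18.5% in the next library (ratio 0.975). ANG II 3 was the highest ANG II library in 9 of 10 members, the exception being mt-Co3. The summed nuclear subunits of complex IV were 7357 FPKM there and 5138 to 5569 FPKM in the other ANG II libraries. Without ANG II 3, the number of members with a limma adjusted p under 0.05 was 9 and the number called lower 4. The shares of all genes in that fit are not given here, so these counts have no reference beside them.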

How the results depend on the processing

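Over 17 alternatives, 144 of 170 member values kept their direction and their side of the adjusted p threshold. Another 13 lost the threshold, 9 gained it and 4 no longer had a negative log2 fold change. In all 17, mt-Co2, mt-Co3 and mt-Atp6 kept both direction and side. Those 4 arose under quantile normalization, which gives each rank the same value in every library. Of them, mt-Nd6 (0.03) and mt-Cytb (0.11) turned positive. The others, mt-Nd2 and mt-Nd5, came to 0.0, which is no change of sign, and also lost the adjusted p threshold, beyond the 13. The number of members called lower, 2 as reported, was 1 with no filter, 7 with median-of-ratios scaling, 6 scaled to the nuclear total, 7 by adjusted p alone and 0 above an absolute log2 fold change of 1. Leaving out 1 library gave 1 to 4: it was 1 without ANG II 1, ANG II 2 or ANG II 4, and 4 without ANG II 3. The shares of all genes called with no filter or with a library left out are not given here. The nuclear subunits of complexes I, III, IV and V called lower, 1 as reported, were 17 with median-of-ratios scaling, 9 with quantile normalization, 6 scaled to the nuclear total and 2 without control 4, with 1 to 2 over single libraries left out. Where no construction is named, the cause was not tested. The difference in the share of fragments was 5.99 percentage points, 6.28 as a share of FPKM, and 5.77 to 6.62 with 1 library left out.

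The labels number the replicates in both groups. Same-numbered libraries deviated together with correlations of only -0.043 to 0.092 over 12947 genes, and only number 2 correlated best with its own number. These values gave no sign of pairing, but they were not tested and cannot show that the samples are unpaired. With a replicate block, 2 members were called lower and 5 had an adjusted p under 0.05, and the shares of all genes in that fit are not given here. In limma with that block, mt-Nd2 (adjusted p = 0.0526) and mt-Nd5 (adjusted p = 0.0832) missed the threshold. mt-Co1 passed with a pseudocount of 0.1 (limma adjusted p = 0.0246) and with voom (1.17e-05).

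Depth did not limit the 7 abundant members, with at least 34580 fragments per library. The 3 low rows, with at least 491, are read with the limit that nuclear copies share their sequence, and 4 libraries a group cannot reach an exact p below 0.0286.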

Other observations

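Of the 37 genes of the mitochondrial genome in the table, 21 were at 0 in every library. The small ribosomal RNA mt-Rnr1 was at 300.3, 268, 4567 and 265 FPKM in control and at 2327, 2067, 2273 and 2821 FPKM in ANG II, so that control 3 lay above all ANG II libraries and the other 3 control libraries far below them. The large ribosomal RNA mt-Rnr2 was at 8096 ± 1529.9 FPKM (SD, n = 4) in control and 4027 ± 679.9 FPKM (SD, n = 4) in ANG II, with no overlap. The transfer RNA mt-Tp was at 1534 to 5300.1 FPKM in control and at 4381 to 4985 FPKM in ANG II. Libraries were enriched for poly(A) RNA, and these genes were chosen after their values were seen.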
